A study of Mus musculus with 9 samples.

Results

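Metallothioneins and the genes that move zinc across membranes were followed in mouse gastrocnemius, a fast muscle of the calf. The group holds 6 genes chosen by name, Mt1, Mt2, Mtf1, Slc30a1, Slc39a10 and Slc39a14, out of 23238 gene symbols measured, and each of the 6 passed the filter on low counts. Mt1 and Mt2 encode small cysteine-rich proteins that bind zinc, copper and toxic heavy metals. MTF1 is the zinc-sensing transcription factor that binds metal response elements near their start sites and switches them on when free zinc or other metals rise, and glucocorticoids induce the same pair of genes. The SLC30 (ZnT) family lowers cytosolic zinc by export or by loading organelles and vesicles, whereas the SLC39 (ZIP) family brings zinc into the cytosol.

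The muscles came from female C57BL/6 mice, labelled as 4 weeks of age and given 7 days of acclimation. The 9 libraries form 3 groups of 3. Normal mice are titled untreated, but the protocol gives them 4 saline injections and water by mouth over 9 days. Cisplatin mice had 4 injections of cisplatin at 3 mg/kg, a platinum drug that crosslinks DNA, with water by mouth. RP mice had the same cisplatin injections plus an oral dose of 100 mg/kg RP on the same 9 days; the labels do not spell out RP, and the series title names an extract of Paeonia lactiflora. All groups were injected on alternate days and dosed by mouth, and no group had RP without cisplatin, so what RP does by itself and what it does to the response to cisplatin cannot be told apart. The labels do not say that each library is a separate mouse, so p-values measure the spread between these libraries.

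Libraries held 8196030 to 10678342 counts. Between 7.38 and 12.8% of them fell on Rn45s, the ribosomal RNA precursor, with the lowest share in an RP library. The tissue label was checked against 6 fast fibre markers. Their sum, in CPM (counts relative to library size, scaled by TMM), ran from 76567 to 94951 in the Normal libraries. It was 60211 to 74909 in those of Cisplatin and 86005 to 101320 in those of RP. Of the 6, 3 were lower in Cisplatin than in Normal and 3 were higher in RP than in Cisplatin. Markers of other cell types moved with the groups as well. As a background, 26.3% of all genes tested were called higher and 28.2% lower in Cisplatin than in Normal (edgeR adjusted p under 0.05). In RP against Cisplatin 24.6% were called higher and 24.2% lower, so counts of 1 or 2 in a list say little. Fibroblast markers (5 of 5 lower in Cisplatin than in Normal) summed to 2582 to 3688 CPM in Normal, against 329 to 724 in Cisplatin, with RP at 1818 to 2668. Macrophage markers (also 5 of 5 lower) summed to 150 to 192, 13.4 to 43.2 and 60.3 to 98.1 CPM in that order. Adipocyte (5 of 5) and smooth muscle markers (4 of 4) were lower in Cisplatin as well, and 5 and 4 of them were higher in RP than in Cisplatin. Erythroid markers (3 of 3 lower) summed to 3870 to 8190 CPM in Normal and 32.7 to 55.8 in Cisplatin, and in RP they were still at 61.7 to 386, below each Normal library. Endothelial markers split, with 1 higher and 2 lower of 5, and of the neutrophil markers 1 of 4 tested was higher. Hepatocyte markers, included because liver is rich in metallothionein, summed to 249 to 671 CPM in Normal and 110 to 416 in Cisplatin, with 1 of 4 lower. In RP they summed to 343 to 1078 CPM, and 2 of the 4 were higher than in Cisplatin. No marker in these lists was at 0 throughout a group. In bulk muscle fewer cells of a type and less RNA per cell cannot be told apart, and the part of these shifts in the results below was not tested.

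Mt1 and Mt2 lie next to each other on chromosome 8 (positions from GENCODE M21, whose assembly GRCm38 corresponds to mm10). Mt2 spans 94172664 to 94173568 and Mt1 94179082 to 94180327, both on the plus strand and both protein-coding, with 5513 bases between them. The region before each start site is shown because the metal response element, the sequence MTF1 binds, is what links these genes to metal sensing. Capitals mark its core, written here as TGCACNC or TGCGCNC on either strand, in the 250 bases before and 30 after the RefSeq start (GRCm38.p6, plus strand). The windows are chr8:94178839-94179118 for Mt1, chr8:94172368-94172647 for Mt2 and chr1:191906531-191906810 for Slc30a1, the zinc exporter gene that is also a known MTF1 target.
Mt1: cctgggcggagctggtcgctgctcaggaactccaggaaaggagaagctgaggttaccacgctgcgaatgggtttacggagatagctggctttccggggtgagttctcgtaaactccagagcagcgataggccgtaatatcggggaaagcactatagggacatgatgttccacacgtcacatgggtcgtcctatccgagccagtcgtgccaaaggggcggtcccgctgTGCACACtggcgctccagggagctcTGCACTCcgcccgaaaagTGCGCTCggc
Mt2: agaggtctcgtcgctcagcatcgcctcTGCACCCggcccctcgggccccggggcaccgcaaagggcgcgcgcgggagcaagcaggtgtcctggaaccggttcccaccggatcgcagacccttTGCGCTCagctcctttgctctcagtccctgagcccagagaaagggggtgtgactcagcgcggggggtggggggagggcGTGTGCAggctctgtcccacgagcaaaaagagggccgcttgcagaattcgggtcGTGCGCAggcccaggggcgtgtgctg
Slc30a1: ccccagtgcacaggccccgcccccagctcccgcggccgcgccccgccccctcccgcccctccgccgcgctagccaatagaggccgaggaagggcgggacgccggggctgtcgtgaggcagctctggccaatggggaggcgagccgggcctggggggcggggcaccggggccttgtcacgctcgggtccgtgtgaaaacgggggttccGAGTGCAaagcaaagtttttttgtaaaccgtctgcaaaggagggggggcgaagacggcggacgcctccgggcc
Mt2 held 4 matches and Mt1 held 3. Of 32851 RefSeq promoter windows of the same length, 0.405% had at least 4 and 1.73% at least 3. Slc30a1 held 1, and 24.1% of all windows had at least 1. Matches in Mtf1 and in both start regions of Slc39a10 numbered 0. RefSeq windows were matched for 5 of the 6 genes. The core of the antioxidant response element, TGACNNNGC on either strand, occurred in Mt2 and in Slc30a1, against 11.5% of all windows, and overlapped no metal response core. The Mt2 window ends at 94172647, before the GENCODE start of Mt2 at 94172664. Counts and positions of matches therefore hold for the RefSeq starts, and sequence beyond each window was not searched. In Mt1 the cores lay at -23 to -17, 3 to 9 and 21 to 27 bases from the RefSeq start, the later ones after it. Which start sites this muscle uses was not tested. Cores of either element near another start could be missed, in Mt1 as well as in Mt2. A match describes letters in the window and is not evidence of binding.

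**Figure D1:**
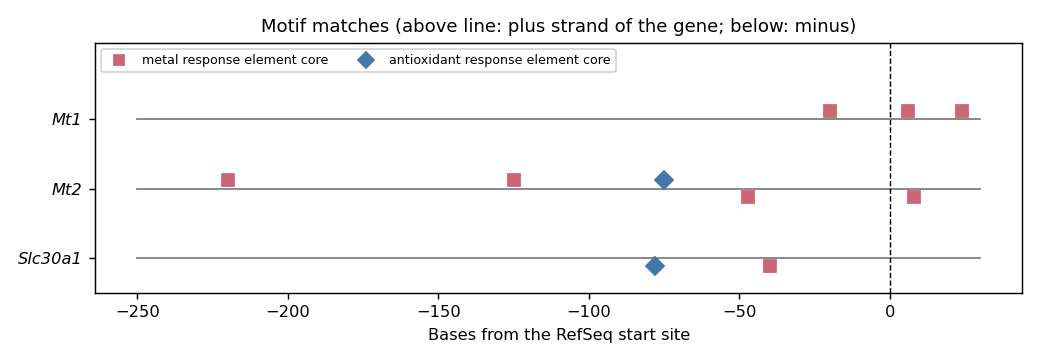
Positions of motif core matches, in bases from the RefSeq start site (dashed line), for Mt1, Mt2 and Slc30a1, with matches on the gene's plus strand above each line and on its minus strand below. Mt1 holds 3 metal response element cores close to the RefSeq start, at -23 to -17 before it and at 3 to 9 and 21 to 27 after it. Mt2 holds 4 spread over its window, and Slc30a1 holds 1. Sequence beyond the windows was not searched. The Mt2 window ends before the GENCODE start of that gene.

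The metallothionein genes showed the widest range of the 6, and setting Cisplatin beside Normal addresses how they respond to the drug. Mt1 was at 66.8, 125 and 123 CPM in the Normal libraries and at 9925, 13035 and 10309 CPM in Cisplatin. Mt2 was at 44.1, 76.8 and 58.5 CPM in Normal and at 6994, 9206 and 8312 CPM in Cisplatin. The lowest Cisplatin library stood far above the highest Normal library for both genes. Their mean levels were 106-fold and 137-fold higher in Cisplatin, log2 fold changes of 6.72 ± 0.42 (SE) for Mt1 and 7.09 ± 0.49 for Mt2 (edgeR quasi-likelihood test, Benjamini-Hochberg adjusted p = 7.85e-08 and 1.51e-07). Together they took 0.0112 to 0.0201% of all counts in a Normal library and 1.58 to 2.19% in a Cisplatin library.

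In RP the metallothioneins were far lower than in Cisplatin, and uneven between libraries. Mt1 was at 353, 135 and 406 CPM in RP and Mt2 at 258, 82.3 and 378 CPM. RP replicate 2 was the lowest for both, only just above the highest Normal library, while RP replicates 1 and 3 were well clear of it. Against Cisplatin the log2 fold changes were -5.22 ± 0.39 for Mt1 and -5.09 ± 0.45 for Mt2 (edgeR adjusted p = 5.02e-07 and 1.71e-06). On the linear CPM scale, the mean rise of RP over Normal was 1.76% of that of Cisplatin for Mt1 and 2.22% for Mt2. Mean levels in RP were still 2.84-fold those of Normal for Mt1 and 4.01-fold for Mt2. Both stayed above Normal in each RP library. The rise of Mt2 over Normal was 2.002 ± 0.40 on the log2 scale and passed the test (edgeR adjusted p = 0.0425), while that of Mt1 was 1.505 ± 0.34 and did not (edgeR adjusted p = 0.0740). The call for Mt2 was lost in 10 of 18 alternative fits, over which its adjusted p ran from 1.61e-05 to 0.219. Those 10 include the fits without Normal replicate 1 or 3, Cisplatin replicate 1 or 2, or RP replicate 1 or 3, with log2 fold changes of 1.51 to 2.004. Mt1 was called without RP replicate 2 (1.86, adjusted p = 0.00350), with DESeq2 (adjusted p = 0.0189) and with no filter (adjusted p = 0.000316), within a range of 0.000316 to 0.339.

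**Figure D2:**
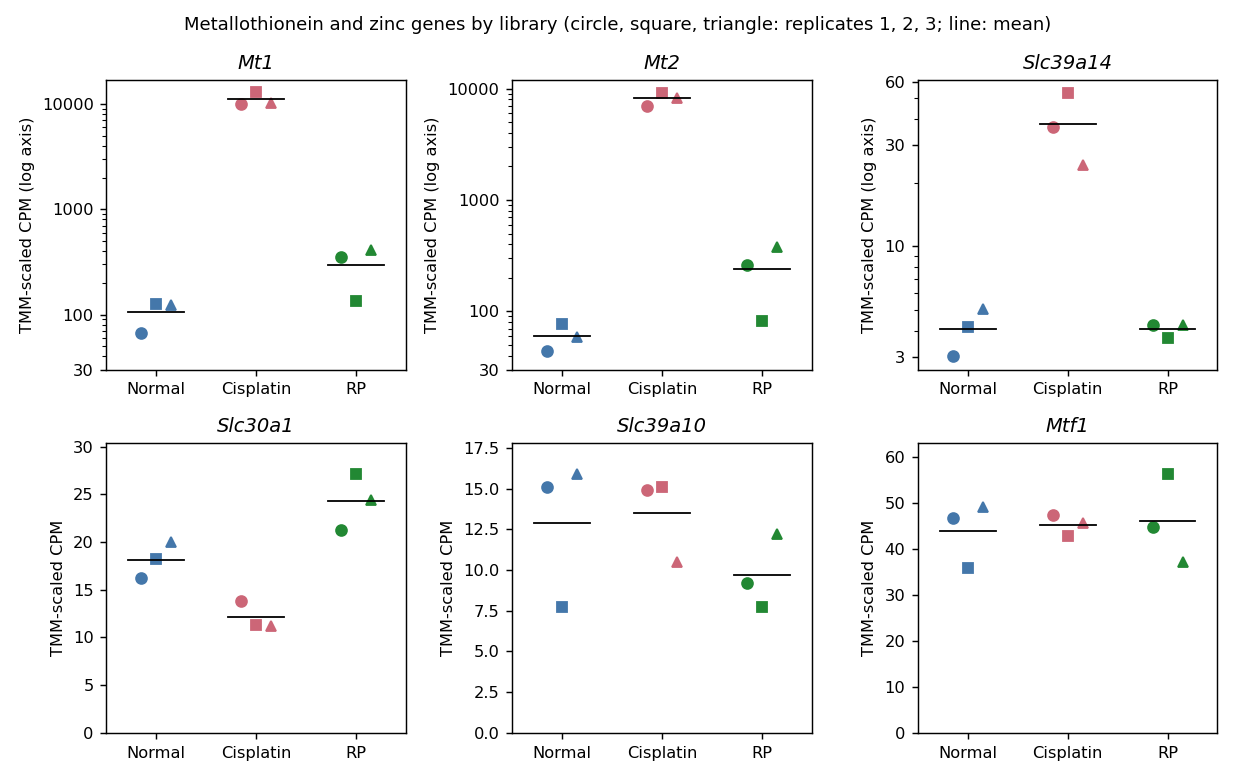
TMM-scaled CPM of the 6 genes in each library, with a log axis for Mt1, Mt2 and Slc39a14 and a linear axis from 0 for the others; symbols are replicates 1, 2 and 3 and lines are group means. Mt1, Mt2 and Slc39a14 are high in the 3 Cisplatin libraries, Slc30a1 is lowest there, and the groups overlap for Slc39a10 and Mtf1.

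The balance of the 2 metallothionein transcripts was read from the ratio of Mt1 to Mt2 counts within a library, which does not depend on scaling. It was 1.52, 1.63 and 2.10 in Normal, 1.42, 1.42 and 1.24 in Cisplatin, and 1.37, 1.64 and 1.07 in RP. Each Cisplatin ratio lay below each Normal ratio, a log2 difference of -0.35 (exact two-sided permutation test, p = 0.1, the smallest that 3 against 3 libraries allow; adjusted p = 0.3 over 3 comparisons). Without Normal replicate 3 this difference was -0.21. RP ratios ran from below each Cisplatin ratio to inside the Normal range. Their log2 differences were -0.02 from Cisplatin (exact permutation p = 0.8, adjusted p = 0.8) and -0.37 from Normal (exact permutation p = 0.3, adjusted p = 0.45), the last being -0.21 without RP replicate 3. Since each library read 1 tag near the transcript end, the ratio compares tags without scaling by length. Reads shared by the pair would blur it: the last 150 bases of the longest annotated Mt1 and Mt2 transcripts were 62.0% identical in a global alignment, with 10 bases as their longest shared run. An antisense gene, Gm45774 (94170748 to 94173412, minus strand), overlaps Mt2 but stops short of its 3′ end, and no strand setting is stated for reads in the overlap.

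**Figure D3:**
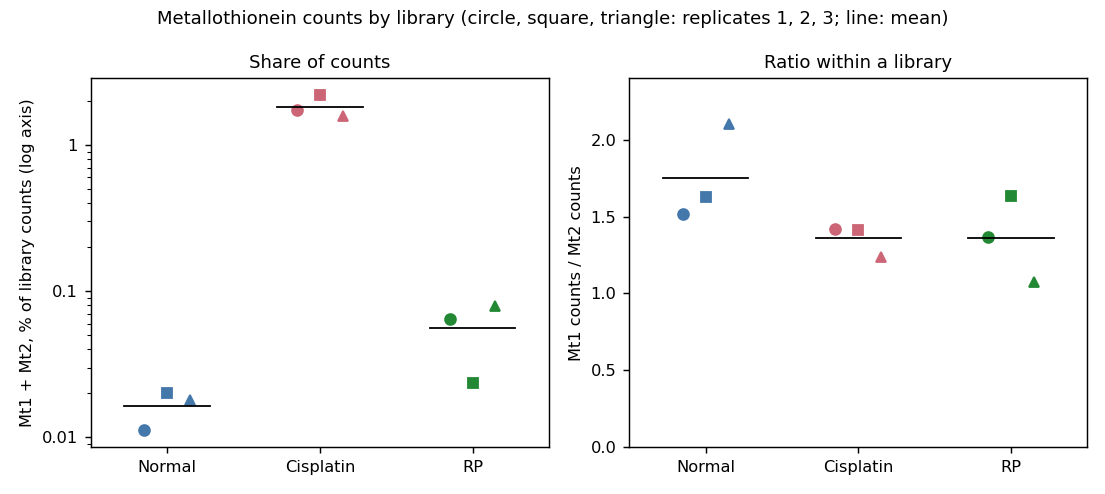
Left, the share of each library's counts that fell on Mt1 and Mt2 together (log axis); right, the ratio of Mt1 to Mt2 counts (axis from 0); symbols are replicates 1, 2 and 3 and lines are means. The share runs from 1.58 to 2.19% in Cisplatin, and the 3 Cisplatin ratios lie below the 3 Normal ratios.

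The other 2 metallothionein genes of the cluster, Mt3, known mainly from brain, and Mt4, known from stratified epithelia, stayed near the floor. Mt3 had 17 counts over the Normal group, 36 over Cisplatin and 25 over RP. Mt4 had 5 counts, all in 1 Cisplatin library. Both fell below the filter and were not tested. The protein-coding genes that flank the cluster, Bbs2 (a cilium protein gene) and Nup93 (a nuclear pore gene), were at 2.93 ± 0.18 and 10.7 ± 2.19 CPM (mean ± SD, n = 3) in Normal and at 4.52 ± 0.59 and 16.1 ± 2.19 CPM in Cisplatin. Their log2 fold changes were 0.62 (edgeR adjusted p = 0.121) and 0.59 (edgeR adjusted p = 0.0229), far smaller than those of Mt1 and Mt2.

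Mtf1, on chromosome 4 at 124802104 to 124849800 (plus strand), showed no called change in its mRNA. It was at 46.7, 35.8 and 49.1 CPM in Normal, 47.2, 42.8 and 45.6 CPM in Cisplatin and 44.7, 56.2 and 37.1 CPM in RP. The 3 groups overlapped. Its log2 fold change was 0.04 ± 0.17 in Cisplatin against Normal and 0.03 ± 0.17 in RP against Cisplatin (edgeR adjusted p = 0.850 and 0.909), with signs that turned under some alternatives. MTF1 is controlled largely as a protein, by zinc binding and entry into the nucleus, which mRNA counts do not measure.

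Slc30a1, on chromosome 1 at 191906767 to 191913247 (plus strand), encodes ZnT1, the exporter of the plasma membrane. It moved opposite to the metallothioneins in Cisplatin against Normal and in RP against Cisplatin, but not in RP against Normal. It was at 16.2, 18.3 and 19.97 CPM in Normal and at 13.9, 11.3 and 11.2 CPM in Cisplatin. The 2 groups did not overlap, and the gene fell by 0.58 ± 0.17 on the log2 scale (edgeR adjusted p = 0.0117). This call was lost without Normal replicate 3 (-0.49, adjusted p = 0.0529), and over the alternatives its adjusted p ran from 0.00540 to 0.0529. In RP it was at 21.3, 27.1 and 24.4 CPM, above each Cisplatin library, and the rise was 1.003 ± 0.17 (edgeR adjusted p = 0.000347). Each RP library also lay above each Normal library, but the difference of 0.42 ± 0.17 did not pass the test (edgeR adjusted p = 0.313).

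Slc39a14 encodes ZIP14, an importer of zinc, iron and manganese that is induced in liver by inflammatory cytokines. It lies on chromosome 14 at 70303469 to 70351425 (minus strand). It was at 3.02, 4.16 and 5.05 CPM in Normal and at 36.8, 53.0 and 24.2 CPM in Cisplatin, with Cisplatin replicate 2 the highest. The groups were far apart although the Cisplatin libraries differed among themselves, and the rise was 3.22 ± 0.29 on the log2 scale, 9.31-fold in mean CPM (edgeR adjusted p = 1.19e-06). In RP it was at 4.24, 3.67 and 4.24 CPM, inside the range of the Normal libraries. It fell by 3.23 ± 0.29 against Cisplatin (edgeR adjusted p = 1.75e-06) and differed from Normal by -0.01 ± 0.31 (edgeR adjusted p = 0.994). Counts were 25 to 42 in each Normal and RP library.

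Slc39a10 encodes ZIP10, an importer whose gene MTF1 is known to repress, and it was not called in any comparison. On chromosome 1 at 46807544 to 46892852 (minus strand), it was at 15.1, 7.75 and 15.9 CPM in Normal, 14.9, 15.1 and 10.5 CPM in Cisplatin and 9.20, 7.75 and 12.2 CPM in RP. Spread within the groups was as wide as the differences between them, with log2 fold changes of 0.07 ± 0.27 in Cisplatin against Normal and -0.48 ± 0.28 in RP against Cisplatin (edgeR adjusted p = 0.850 and 0.169). The sign of the first turned under 4 of 18 alternatives. Against Normal, RP was at -0.41 ± 0.28 (edgeR adjusted p = 0.577).

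**Figure D4:**
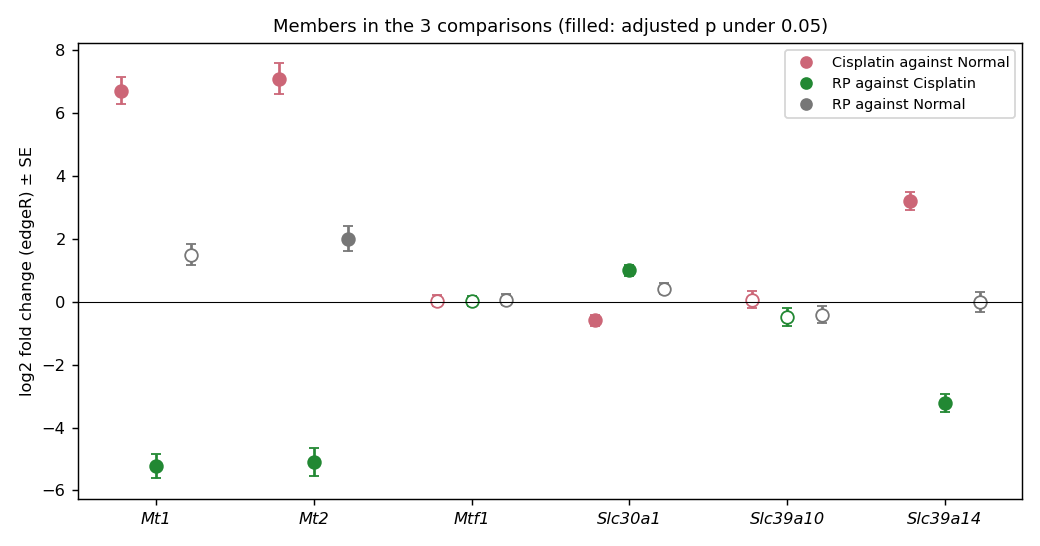
Log2 fold changes (edgeR estimate, bars are 1 SE) of the 6 genes in the 3 comparisons; filled symbols passed an adjusted p of 0.05. Mt1, Mt2 and Slc39a14 are high in Cisplatin against Normal and low in RP against Cisplatin, Slc30a1 has the opposite signs, and of the RP against Normal values only that of Mt2 is filled.

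Counted together, 3 of the 6 genes rose, 1 fell and 2 were not called in Cisplatin against Normal, where 54.5% of all 12859 genes tested were called, 26.3% as higher and 28.2% as lower. The median of the 6 was 1.64 on the log2 scale against -0.08 over all genes. In RP against Cisplatin 3 fell, 1 rose and 2 were not called, against 48.8% called over all genes (24.2% lower, 24.6% higher), with medians of -1.85 and 0.07. In both comparisons the median of the 6 falls in the gap between Slc39a10 and Slc39a14, so it does not describe a shift shared by the 6. The same 4 genes had non-overlapping groups in both comparisons, a pattern seen in 62.2% and 56.8% of all genes. In RP against Normal 3 of the 6, Mt1, Mt2 and Slc30a1, did not overlap, against 19.2% of all genes. In RP against Normal, Mt2 alone was called, as higher, against 0.505% of all genes (0.187% higher, 0.319% lower), with a median of 0.24 for the 6 and -0.01 over all genes. These comparisons share libraries, so their values are set side by side and are not independent. A share of 4 in 6 called is not far from the background of the first 2 comparisons, so the count itself says little about these genes, and their values above carry the description.

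Of the other zinc transporters and metallothioneins, 14 of 23 passed the filter and most of those were not called. In Cisplatin against Normal 2 rose, 2 fell and 10 were not called, where 26.3% of all genes were called higher and 28.2% lower, with a median of -0.03 against -0.08 over all genes. Slc39a7, the ZIP7 channel that releases zinc from the endoplasmic reticulum, was at 39.7, 38.0 and 38.4 CPM in Normal, 84.8, 96.1 and 114 CPM in Cisplatin and 45.2, 40.2 and 43.0 CPM in RP. Every Cisplatin library was above every other library, with a rise of 1.34 ± 0.14 and a fall by 1.20 ± 0.14 in RP (edgeR adjusted p = 3.65e-06 and 1.37e-05). Slc30a2 (ZnT2, which loads zinc into vesicles) was low, at 2.94 ± 1.25 CPM in Normal and 6.82 ± 2.05 in Cisplatin, and rose by 1.22 ± 0.38 (edgeR adjusted p = 0.0161). Its call was lost without Normal replicate 1 or Cisplatin replicate 2 or 3 (edgeR adjusted p = 0.0552 to 0.0650).

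The 2 transporter genes that fell both belong to the ZIP family. Slc39a11 (ZIP11) was at 7.01, 6.36 and 7.22 CPM in Normal, 0.352, 1.62 and 0.119 CPM in Cisplatin and 3.101, 6.46 and 2.93 CPM in RP. It fell by 3.19 ± 0.58 and was higher again in RP by 2.47 ± 0.59 (edgeR adjusted p = 0.000426 and 0.00345), on 21 counts in all over the Cisplatin group. Without Cisplatin replicate 2 its log2 fold change against Normal was -4.78 and its difference between RP and Cisplatin was 4.06. Slc39a3 (ZIP3, an importer of the plasma membrane) went from 11.8 ± 2.07 to 6.29 ± 1.53 CPM, a fall by 0.91 ± 0.24 (edgeR adjusted p = 0.00520), and its value of 0.40 ± 0.24 in RP against Cisplatin was not called (edgeR adjusted p = 0.173). Fibroblast and macrophage markers fell in the same libraries, as given above, and their part in these falls was not tested. In RP against Cisplatin 2 of the 14 fell, Slc39a7 and Slc30a2 (-1.77 ± 0.39, edgeR adjusted p = 0.00222), 1 rose and 11 were not called, against 48.8% called over all genes, with a median of -0.06. In RP against Normal 0 of 14 were called by edgeR, DESeq2 or limma-voom, where edgeR called 0.505% of all genes, and 1 had an unadjusted p under 0.05.

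Of 5 genes described elsewhere as dependent on MTF1, 2 rose, 2 fell and 1 was not called in Cisplatin against Normal, with a median of -0.09. With 26.3% of all genes called higher and 28.2% lower, this split is not a result about these genes as a set. Pgf (placental growth factor) went from 3.07 ± 1.35 to 18.5 ± 4.57 CPM, a rise of 2.59 ± 0.36 (edgeR adjusted p = 4.63e-05). Gclc, the catalytic subunit for glutathione synthesis, rose by 0.72 ± 0.19 (edgeR adjusted p = 0.00505). Ndrg1 (a stress-responsive gene) and Sepw1 (selenoprotein W, now Selenow) fell by 0.84 ± 0.30 and 0.33 ± 0.13 (edgeR adjusted p = 0.0296 and 0.0403). Both falls were lost without any 1 of the 3 Normal libraries or Cisplatin replicate 2 or 3, which left 2 called genes, and that of Sepw1 also without RP replicate 3 and with RLE scaling or no filter (adjusted p = 0.0126 to 0.179 over the alternatives). In RP against Cisplatin these 4 had the opposite signs and were called, Pgf at -1.96, Gclc at -0.67, Ndrg1 at 0.77 and Sepw1 at 0.55 (edgeR adjusted p = 0.000363, 0.00850, 0.0472 and 0.00326). The median of the 5 was 0.15 against 0.07 over all genes, where 24.6% were called higher and 24.2% lower. With 48.8% of all genes called, this reversal is not a result about these genes as a set. The rise of Ndrg1 was lost in 9 of 18 alternatives, among them those without any 1 of the Normal libraries, without Cisplatin replicate 2 or 3 and without RP replicate 1 or 2 (adjusted p = 0.00133 to 0.164 over the alternatives). Its Cisplatin and RP libraries overlapped, with Cisplatin replicate 1 at 42.4 CPM and RP replicate 3 at 31.2 CPM. Without Cisplatin replicate 1 the rise of Ndrg1 was 1.27 and without Cisplatin replicate 3 it was 0.47, and its value in Cisplatin against Normal was -1.34 and -0.54 in the same 2 refits. Csrp1, a LIM-domain protein gene, was at 32.3 ± 4.44, 30.4 ± 7.55 and 33.7 ± 3.54 CPM in Normal, Cisplatin and RP and was not called. In RP against Normal, where edgeR called 0.505% of all genes, 0 of 5 were called by edgeR, DESeq2 or limma-voom. By edgeR, 0 had an unadjusted p under 0.05.

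**Figure D5:**
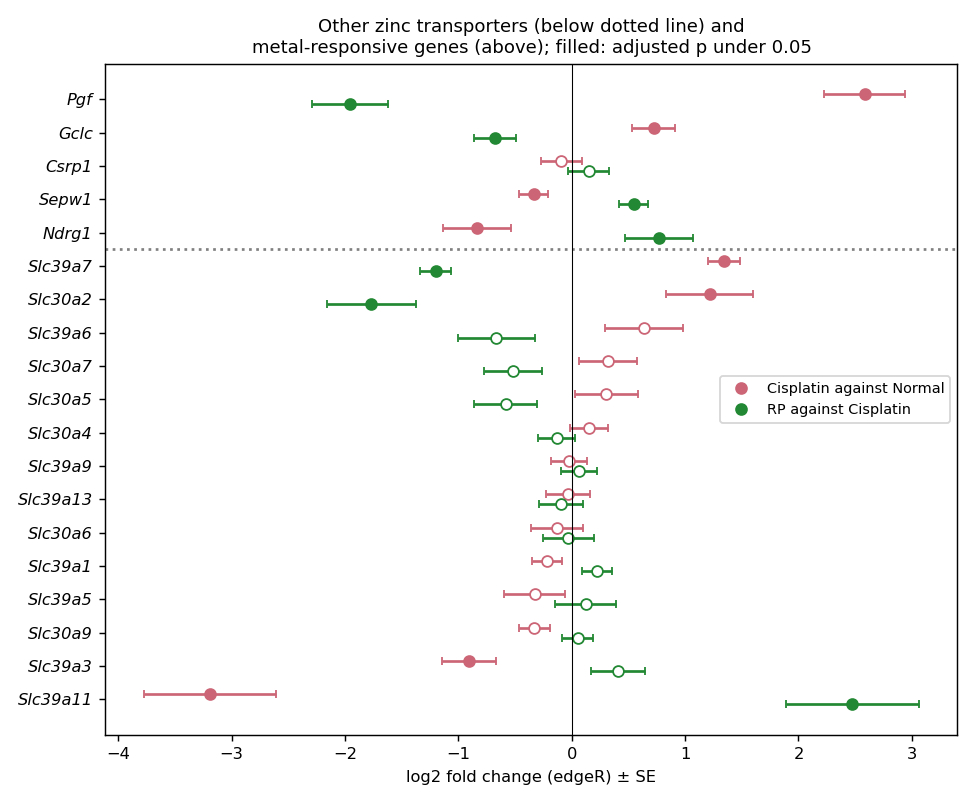
Log2 fold changes (edgeR estimate, bars are 1 SE) of 14 other zinc transporter genes (below the dotted line) and 5 metal-responsive genes (above it) in Cisplatin against Normal and in RP against Cisplatin; filled symbols passed an adjusted p of 0.05. Slc39a7, Slc30a2, Pgf and Gclc are to the right in Cisplatin and to the left in RP against Cisplatin, and Slc39a11 is the farthest to the left in Cisplatin, at -3.19.

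Genes with the most similar pattern were found by Pearson correlation over the 9 libraries among 9097 named genes, as a description without a test, since the 9 points share 3 groups. For Mt1 they were Mknk2, a kinase of translation initiation (r = 0.997; 133 ± 19.2, 902 ± 57.7 and 195 ± 42.6 CPM in Normal, Cisplatin and RP), Mt2 (r = 0.997) and Mybbp1a (r = 0.996). For Mt2 they were Mt1, Polg, the mitochondrial DNA polymerase gene (r = 0.996), and Gart, of purine synthesis (r = 0.995). Slc39a14 was most like Paox and Srm, both of polyamine metabolism (r = 0.994 and 0.987), and the tubulin gene Tubb5 (r = 0.993). Slc30a1 was most like Lcmt1 (r = 0.967), Galk1 (r = 0.951) and the immunoproteasome gene Psmb10 (r = 0.950). For Mtf1, with no group difference, the closest were Acer3, Aldh5a1 and Agfg1 (r = 0.884, 0.865 and 0.840).

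Of the 3 genes most like Slc39a10, 2 are neutrophil transcripts. They were S100a9 (r = 0.955), G2e3 (r = 0.878) and S100a8 (r = 0.874), and S100a8 and S100a9 encode the calprotectin subunits that neutrophils carry. S100a9 was at 17.5 ± 13.4 CPM in Normal, 16.4 ± 12.1 in Cisplatin and 3.95 ± 1.89 in RP, and S100a8 was at 8.27 ± 6.43, 17.8 ± 11.9 and 3.92 ± 3.0 CPM in that order. The 5 neutrophil markers summed to 5.43 to 43.0 CPM in Normal, against 11.1 to 70.6 in Cisplatin, with RP at 8.24 to 14.4. Of the 4 tested, 3 were lower in RP than in Cisplatin, against 24.2% of all genes. Their part in the spread of Slc39a10 was not tested.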

How the data were processed

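The deposited files are 9 tables of raw read counts, 1 per library, with 23282 rows of gene symbol and count. Per the labels' protocols, 500 ng of Trizol-extracted RNA was made into a Lexogen QuantSeq 3′ library, which reads 1 tag per transcript end. Per the submitters' processing notes, Bowtie2, edgeR and the mm10 build were used; for versions, counting program, strand setting and annotation the sources used here give nothing.

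Rows sharing a symbol (79 rows, 35 symbols) were summed. Genes were filtered by filterByExpr, TMM-scaled and tested with edgeR 4.0.16 (R 4.3.3; glmQLFit and glmQLFTest, 9 libraries, 1 coefficient per group), with Benjamini-Hochberg adjustment over 12859 genes. SEs were obtained from each log2 fold change and its F statistic. With library size as the only scaling, the median log2 fold change of all genes moved from -0.08 to -0.15 in Cisplatin against Normal, from 0.07 to 0.21 in RP against Cisplatin, and from -0.01 to 0.06 between RP and Normal. Replicates differed by more than counting error (chi-square per degree of freedom 12.1 to 31.0). The procedure was tested on simulated data.

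The genes and lists were chosen with earlier results of these data known. Named were the 6 genes, called members of the 2 lists, and the 3 genes most like each by correlation of log2(CPM + 1), with a mean of at least 5 CPM; Mt3, Mt4, Csrp1, Bbs2, Nup93 and Gm45774 were added after values were seen. Alternatives were RLE or library-size scaling, no filter, DESeq2 1.42.0, limma-voom (limma 3.58.1), at least 5 CPM in 3 libraries, the 2 compared groups alone, a replicate block, no Rn45s, and leaving out each library. Positions are GENCODE M21; promoter windows are RefSeq.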

Additional observations from a re-analysis of the deposited data

How the results depend on the processing

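Both in Cisplatin against Normal and in RP against Cisplatin, Mt1, Mt2 and Slc39a14 kept their direction and call under all 18 alternatives, as Slc30a1 did in RP against Cisplatin. The 6 genes had 3 to 4 calls and 4 calls there. In RP against Normal the call count was less stable: 1 gene in the fit reported, 2 with no filter or DESeq2, 0 with at least 5 CPM in 3 libraries, limma-voom or the 2 groups alone, and 0 to 2 on leaving out a library. Over all genes that comparison gave 65 calls, 293 with no filter, 229 with DESeq2 and 22 to 116 on leaving out a library. The metal-responsive genes gave 2 to 4 calls in Cisplatin against Normal on leaving out a library. The cause of these shifts was not tested.

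With the replicate number as a block, 0 of the 6 genes were called in RP against Normal, Mt2 being at 1.92 (edgeR adjusted p = 0.0636). No clear pairing by number was seen, though 3 libraries a group are too few to exclude one. Correlations of deviations between same-numbered libraries ran from -0.15 to 0.18, and 6 of 18 best matches had the same number. Of the 9 correlations 2 were over 0.1, both between Cisplatin and RP (0.18 for replicate 2 and 0.17 for replicate 3).

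Signs turned only for differences that were not called, in 16 of 592 refits of single genes, each with adjusted p of at least 0.537. For Mtf1 in Cisplatin against Normal the value was -0.032 with library size as the only scaling and -0.029 with at least 5 CPM in 3 libraries, and -0.075 to 0.15 on leaving out a library. It was -0.14 to 0.15 in RP against Cisplatin and -0.10 to 0.21 in RP against Normal on leaving out a library. Slc39a10 in Cisplatin against Normal was at -0.00096 with at least 5 CPM in 3 libraries and -0.18 to 0.26 on leaving out a library. Slc39a14 in RP against Normal was at 0.058 with library size as the only scaling, 0.012 with limma-voom and -0.18 to 0.18 on leaving out a library. The log2 difference in the Mt1 to Mt2 ratio of RP from Cisplatin ran from -0.16 to 0.14. With 3 libraries a group, differences the size of those for Slc39a10 and Mtf1 were within the spread.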
